A study of Mus musculus with 12 samples.

Results

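Glycogen is the branched glucose store of the hepatocyte. The 9 genes described here are the liver glycogen synthase Gys2, the branching enzyme Gbe1, the UDP-glucose pyrophosphorylase Ugp2, the liver glycogen phosphorylase Pygl, the phosphorylase kinase subunits Phka2 and Phkg2, and the glycogen-targeting subunits of protein phosphatase 1 Ppp1r3b, Ppp1r3c and Ppp1r3g. They were chosen by name for their role in glycogen metabolism, with earlier results of these data known. They are 9 of the 53465 genes in the count table. RNA was sequenced from whole liver of C57BL/6N mice that were 3 months old (young), 12 months old (middle-aged) or 18 months old (aged). Each age had 4 livers, 1 an animal, named by the replicate numbers 1 to 4 of the sample labels, and the ages differed in no labelled treatment or genotype. The time of day at which the livers were taken and the feeding state of the animals are not given in the labels.

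Glucose enters glycogen as UDP-glucose, which is joined to the chain by glycogen synthase and branched by the branching enzyme, and it is released as glucose 1-phosphate by phosphorylase. Phosphorylase kinase switches phosphorylase on. Protein phosphatase 1 acts in the opposite sense, since it removes phosphate from synthase and phosphorylase and so favours storage, and its Ppp1r3 subunits bring it to the glycogen particle. In liver these steps follow insulin, glucagon, feeding and the circadian clock.

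The libraries held 8124312 to 10527159 counts on genes, and spike-in RNA took a further 1.589% to 10.63%. The spike-ins fell into 2 sets, called A and B here. Their levels correlated at 0.9968 or more within a set and at 0.9252 or less between sets. Replicates 1 and 2 of each age carried set A and replicates 3 and 4 set B, so each age was split evenly and values are also given within each set, where 2 livers of each age remain. In the libraries young 3 and middle-aged 3, 5 skeletal muscle markers summed to 53.4 and 74.4 CPM (counts scaled to a common library size), against 0.77 to 4.19 in the other 10. Of 6 hepatocyte markers none was called by DESeq2, edgeR or limma in any comparison, with 2 at an unadjusted p under 0.05 in each of the comparisons with young liver, and they summed to between 65300 and 104000 CPM.

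Among the 9 genes, Ppp1r3c changed most clearly with age, and the sequence just upstream of it is shown because it held the single motif found in the promoter windows searched. RefSeq gave 8 windows for 7 of the 9 genes, each from 250 bases before to 50 bases after a start site (GRCm38.p6). Gys2 and Ppp1r3b had no entry and were not searched. The letters searched on both strands were CACGTG (the E-box bound by the clock factors), TTATGTAA (D-box), TGACGTCA (cAMP response element) and TGTTTAC (forkhead). An E-box was found in 1 of the 8 windows, that of Ppp1r3c, and in 7.15% of all 32851 promoter windows. The D-box, the cAMP response element and the forkhead letters were found in none of the 8, and in 0.938%, 1.79% and 3.65% of all windows. The stretch below is chr19:36736654-36736854 on the minus strand, 201 bases that end where the annotated gene begins. Capitals mark the E-box, which starts 104 bases upstream of the RefSeq start site and overlaps none of the other motifs. The match describes the letters and does not show that any factor binds there.
Ppp1r3c upstream stretch: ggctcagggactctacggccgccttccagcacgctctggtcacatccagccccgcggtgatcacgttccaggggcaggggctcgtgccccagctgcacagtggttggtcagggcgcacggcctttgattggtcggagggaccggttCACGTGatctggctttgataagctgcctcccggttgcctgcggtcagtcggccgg

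The 9 genes differed widely in level. As a level per length (counts per base of exon, scaled to an equal total in each library, as TPM is), Ugp2 stood at 295.8 ± 56.2 and Pygl at 188.7 ± 26.61 (mean ± SD, n = 12 livers). Ppp1r3b followed at 93.35 ± 57.37, Gys2 at 93.05 ± 17.7, Gbe1 at 63.41 ± 17.27 and Ppp1r3c at 54.91 ± 30.94 on the same scale. The kinase subunits were lower, Phka2 at 8.394 ± 1.298 and Phkg2 at 4.516 ± 0.7101, and Ppp1r3g was lowest at 0.4281 ± 0.3329. Neighbours in this order had overlapping ranges down to Ppp1r3c, and Ppp1r3b was above Gys2 in 5 of the 12 livers. The last 3 steps were wider than the spread. Ppp1r3c was 6.54-fold above Phka2, Phka2 1.86-fold above Phkg2, and Phkg2 10.5-fold above Ppp1r3g, with no overlap of the ranges.

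**Figure D1:**
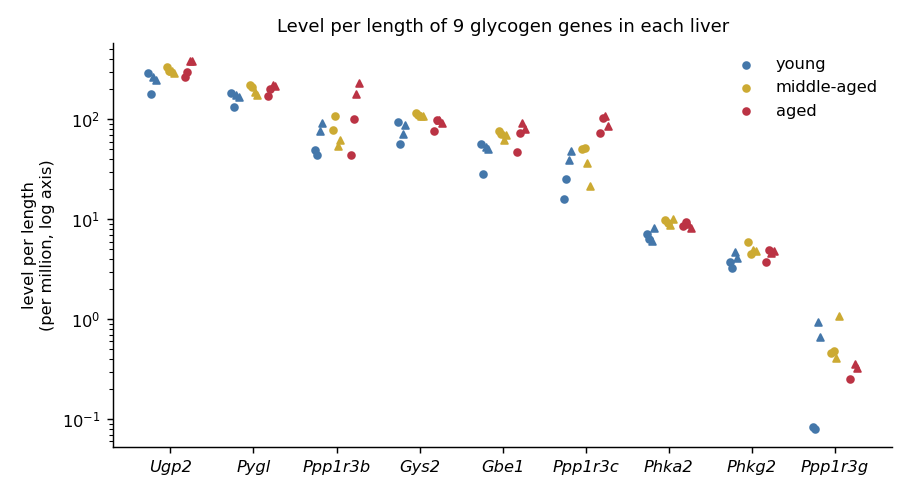
Level per length of each gene in each liver, on a log axis and coloured by age. The tests of age used another scaling of the libraries, so the colours do not show the tested changes. Circles are livers of spike-in set A and triangles of set B, and the aged 2 liver, in which Ppp1r3g was at 0, has no point for that gene. Ugp2 and Pygl lead, the kinase subunits sit between 3.266 and 10.1, and Ppp1r3g lies at or below 1.083 in every other liver.

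The liver form of each enzyme exceeded the forms known from other tissues on the level per length scale, by the smallest ratio for the regulatory kinase subunit. Gys1, the muscle synthase, was at 0.8769 ± 0.3282 beside Gys2. Pygb, the brain phosphorylase, was at 2.861 ± 1.063 and Pygm, the muscle phosphorylase, at 1.01 ± 0.7059 beside Pygl. The catalytic subunit Phkg1 of muscle was at 0.06661 ± 0.08519 beside Phkg2, and the muscle regulatory subunit Phka1 at 2.054 ± 0.5322 beside Phka2. In the targeting family, Ppp1r3b and Ppp1r3c were followed by Ppp1r3e at 4.0 ± 1.45, then by Ppp1r3g, Ppp1r3d at 0.1768 ± 0.1771, Ppp1r3a at 0.04067 ± 0.06362 and Ppp1r3f at 0.03429 ± 0.03502. The relatives Phkg1, Phka1 and Ppp1r3a to Ppp1r3f outside the 9 genes were picked for this comparison of levels after their values were seen. In raw counts, Ppp1r3g held 0 to 12 reads in a library, so its fold changes carry little information at this depth.

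Of the 9 genes, Ppp1r3c alone was called in aged against young liver. DESeq2 was fitted to all genes and 12 livers, with calls at an adjusted p under 0.05 over all genes tested. It called 1 of the 9 genes tested in aged against young, where it called 3.58% of all genes (1.87% as higher in aged liver). In aged against middle-aged liver it called 1 of 8, again Ppp1r3c, where it called 1.14% of all genes (0.537% as higher in aged liver). In middle-aged against young liver it called 0 of 8, where it called 6.41% of all genes. In that comparison 2 of the 8 had an unadjusted p under 0.05, while edgeR on genes with at least 10 counts in 4 samples and limma with voom weights also called 0 (2.31% and 0.921% of all genes). The test across the 3 ages called 2 of 8, Gys2 and Ppp1r3c, where it called 6.96% of all genes. Ppp1r3g was left without an adjusted p in all but the first comparison. These comparisons share livers and are not independent of each other.

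**Figure D2:**
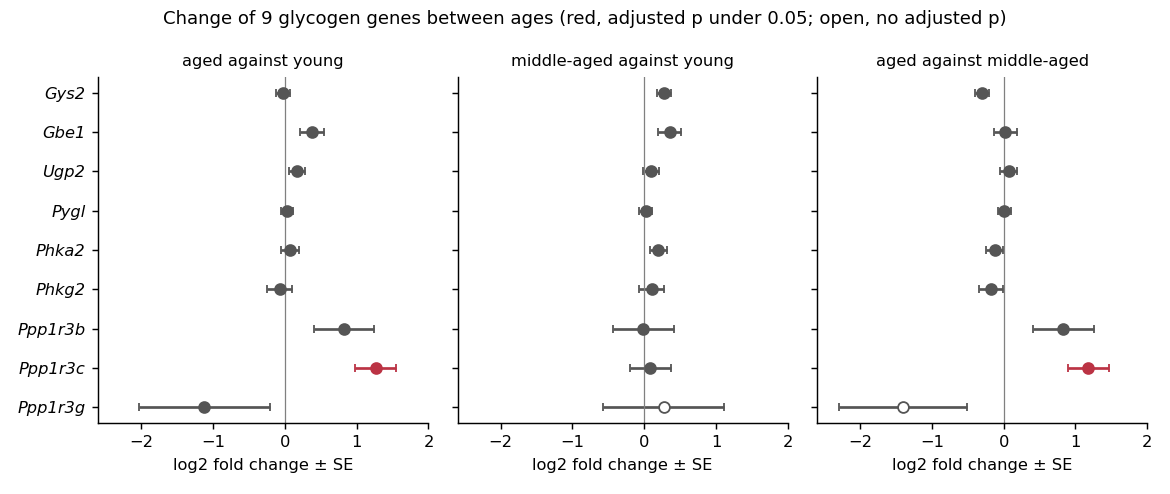
Log2 fold change ± SE of the 9 genes in the 3 pairs of ages, from the fit to all 12 livers. Red points passed the adjusted p of 0.05 and open points had no adjusted p. Ppp1r3c lies at 1.26 and 1.18 in the comparisons with aged liver and at 0.08 in middle-aged against young.

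The median log2 fold change of the tested genes was 0.0752 in aged against young, 0.1 in middle-aged against young and 0.0182 in aged against middle-aged liver. Over all genes tested, the median log2 ratio of group means was -0.000121, 0.00689 and 0.00469 in the same order. The aged and young livers did not overlap for 1 of the 9 genes, beside 7.53% of all genes. Aged and middle-aged livers did not overlap for 2 of the 8 tested, Ppp1r3c and Gys2, beside 6.55% of all genes. Middle-aged and young livers overlapped for all 8, beside 16% of all genes that did not overlap. Bulk liver RNA does not tell a changed number of cells of a type from a changed amount of RNA per cell.

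**Figure D3:**
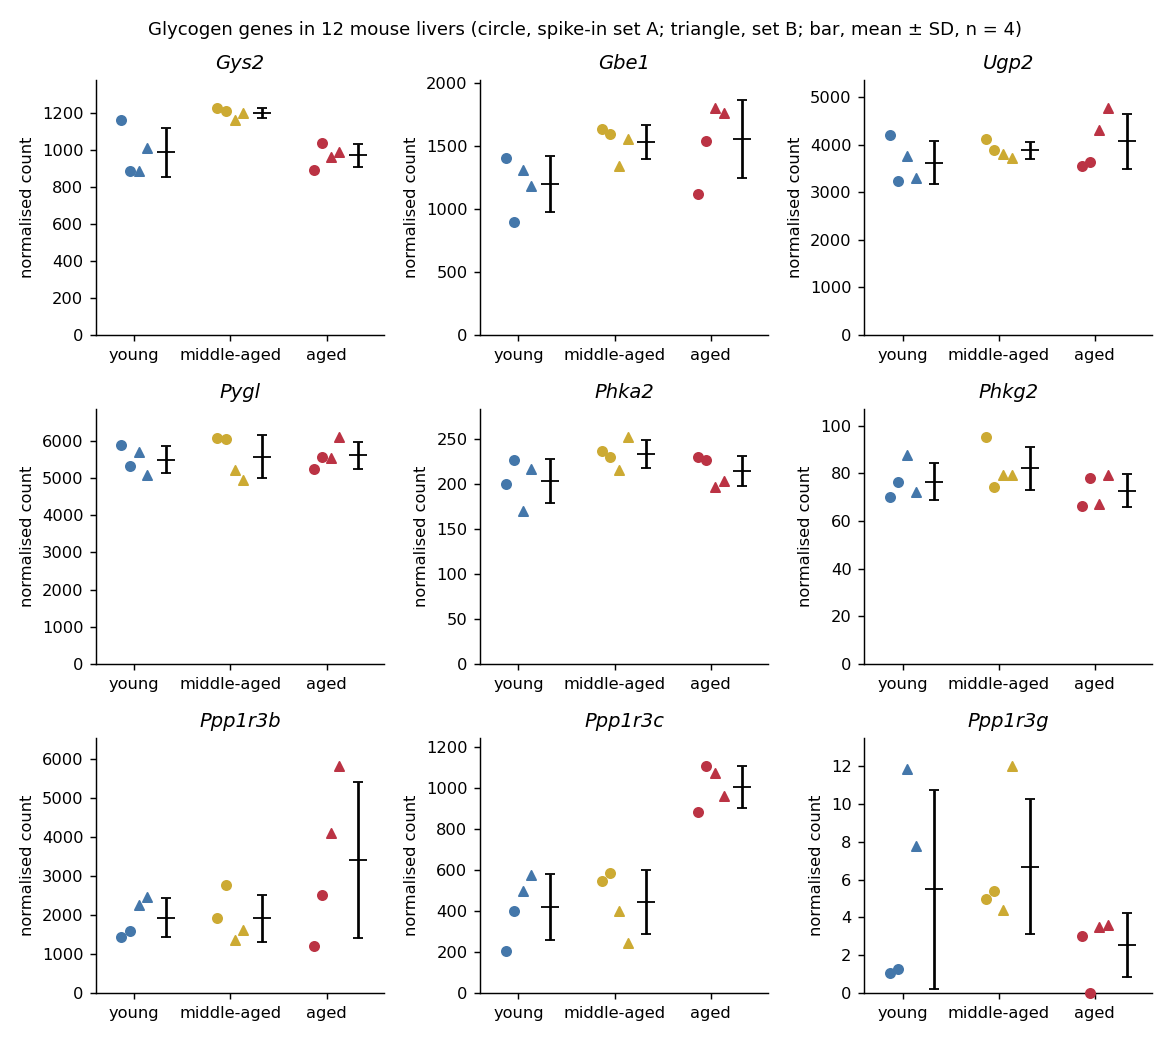
Normalised counts of the 9 genes in each liver, 1 panel a gene, with the mean ± SD of 4 livers beside each age. Circles are livers of spike-in set A and triangles of set B. The 4 aged livers stand above the other 8 for Ppp1r3c, and the aged livers spread from 1213 to 5830 for Ppp1r3b.

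Gys2, which adds glucose to the growing chain and is the liver's own synthase, was highest in middle-aged liver. Its normalised counts (counts divided by the DESeq2 size factor of the library) were 1225, 1207, 1160 and 1198 in middle-aged livers 1 to 4. In aged livers 1 to 4 they were 891.2, 1039, 960.4 and 987.8. In young livers 1 to 4 they were 1162, 885.1, 887.5 and 1008. The middle-aged livers lay above every aged liver and above all young livers but young 1, and they were the most alike, with a coefficient of variation of 2.29% against 13.3% in young and 6.35% in aged liver. The log2 fold change was 0.28 ± 0.10 (SE) in middle-aged against young (DESeq2 adjusted p = 0.0516) and -0.30 ± 0.09 in aged against middle-aged liver (adjusted p = 0.0808). Aged and young liver differed by -0.03 ± 0.10 (adjusted p = 0.942), with a 95% interval of the log2 difference from -0.21 to 0.16.

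Across the 3 ages Gys2 was called by DESeq2 (adjusted p = 0.0283) and not by edgeR (adjusted p = 0.133) or limma (adjusted p = 0.193). The call depended on single livers. It was lost without middle-aged 1, 2, 3 or 4 (adjusted p = 0.144, 0.146, 0.0787 and 0.134), without aged 3 or 4 (0.0684 and 0.0691), and without young 2, 3 or 4 (0.0552, 0.0814 and 0.058). Without young 1 the pair tests passed as well, at 0.37 with an adjusted p of 0.000972 for middle-aged against young and at -0.30 with an adjusted p of 0.0127 for aged against middle-aged. Without aged 1, the adjusted p for middle-aged against young was 0.0334. Within the spike-in sets, middle-aged against young was 0.25 ± 0.20 in set A and 0.30 ± 0.14 in set B, and aged against middle-aged was -0.33 ± 0.20 and -0.27 ± 0.14. The direction was the same in both sets, and neither passed the threshold with 2 livers a group.

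Gbe1, which introduces the branches, had higher means in the 2 older groups that did not pass the test. Normalised counts were 1401, 894.1, 1310 and 1182 in young livers 1 to 4, 1635, 1594, 1337 and 1551 in middle-aged, and 1122, 1542, 1799 and 1757 in aged livers. Aged 1 lay among the young livers and aged 2 to 4 above all of them. The log2 fold change was 0.38 ± 0.16 in aged against young (adjusted p = 0.198) and 0.35 ± 0.16 in middle-aged against young liver (adjusted p = 0.179), and 0.02 ± 0.16 between the older groups. Without aged 1, aged against young was 0.51 and was called (adjusted p = 0.0078), as was the test across the 3 ages (adjusted p = 0.013). Within set A aged against young was 0.22 ± 0.24, and within set B it was 0.51 ± 0.14 (adjusted p = 0.00692), each with 2 livers a group.

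Ugp2, which makes the UDP-glucose used by the synthase, had the highest level of the 9 genes and no call. Young liver averaged 3623 ± 453.8 normalised counts, middle-aged liver 3878 ± 174.3 and aged liver 4067 ± 573.7 (SD, n = 4). Aged 3 and 4, at 4304 and 4766, were above the other 10 livers. The 95% interval of the log2 difference between aged and young liver ran from -0.06 to 0.39.

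Pygl, the enzyme that releases glucose 1-phosphate from the chain, varied least. Its 12 livers lay between 4934 and 6098 normalised counts, a 1.24-fold range and a coefficient of variation of 7.29%. Young liver averaged 5487 ± 357.7, middle-aged liver 5563 ± 578.5 and aged liver 5609 ± 357.2. The log2 difference between aged and young liver was 0.03 ± 0.09, with a 95% interval from -0.14 to 0.20. The 2 scales differed here, since per length Pygl averaged 164.9 ± 22.88 in young and 202.9 ± 21.29 in aged liver. The ratio of Gys2 to Pygl per length followed Gys2. It was 0.525, 0.518, 0.578 and 0.63 in middle-aged livers 1 to 4, above the 0.405 to 0.515 of young and the 0.42 to 0.484 of aged livers, and no test was run on this ratio.

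The phosphorylase kinase subunits had low and even counts. Phka2, the liver regulatory subunit, averaged 203.7 ± 24.51 normalised counts in young liver, 233.8 ± 15.46 in middle-aged liver and 214.9 ± 16.67 in aged liver. Its log2 fold change was 0.08 ± 0.12 in aged against young (adjusted p = 0.844) and 0.20 ± 0.12 in middle-aged against young liver (adjusted p = 0.341). Phkg2, the liver catalytic subunit, averaged 76.6 ± 7.844, 82.12 ± 9.086 and 72.78 ± 6.985 in the same order. For Phkg2 the interval of the log2 difference between aged and young liver ran from -0.41 to 0.27, wider than that of Pygl at its lower count. The 12 livers spanned 1.48-fold for Phka2 and 1.44-fold for Phkg2.

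Ppp1r3c, which brings the phosphatase to glycogen and is also called PTG, rose in aged liver. Its gene lies at chr19:36731731-36736653 on the minus strand (mm10). In aged livers 1 to 4 it had 883.1, 1108, 1073 and 960.1 normalised counts. In young livers 1 to 4 it had 204.9, 399.9, 497.6 and 574.0, and in middle-aged livers 548.1, 586.3, 400.9 and 242.5. Every aged liver was above every young and middle-aged liver, and the aged livers were the most alike, with a coefficient of variation of 10.3% against 38.1% and 35.2%. With size factors from the genes themselves, aged liver was 2.4-fold above young (log2 fold change 1.26 ± 0.29, adjusted p = 0.00126) and 2.26-fold above middle-aged liver (1.18 ± 0.29, adjusted p = 0.00748). Middle-aged and young liver differed by 0.08 ± 0.29 (adjusted p = 0.906), with a wide 95% interval of the log2 difference from -0.48 to 0.65.

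Across the 3 ages the adjusted p for Ppp1r3c was 0.000214, and it stayed under the threshold in all 12 fits that left out 1 liver, with a highest value of 0.00269. Aged against young kept its call in all 12 as well, with a highest adjusted p of 0.00892. Aged against middle-aged lost it without middle-aged 3 (0.0585), middle-aged 4 (0.0593) or aged 3 (0.0596), and when young 3 and middle-aged 3 were both left out (0.0547). With edgeR the adjusted p was 0.047 for aged against young, 0.163 for aged against middle-aged and 0.0366 across the ages, tests that called 1.4%, 0.107% and 1.89% of all genes. With limma it was 0.0271, 0.0391 and 0.0296, and those tests called 0.798%, 0.32% and 1.29%. The difference between aged and middle-aged liver passed in DESeq2 and limma and not in edgeR.

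The spike-in sets gave the same direction for aged liver and opposite ones for the younger groups. Each set was fitted alone with 2 livers a group, and the share of all genes called within a set is not given here. Within set A, Ppp1r3c was 1.73 ± 0.27 higher on the log2 scale in aged than in young liver (adjusted p = 1.5e-07), and within set B 0.92 ± 0.21 higher (adjusted p = 0.000853). Aged against middle-aged was 0.81 ± 0.27 in set A, which DESeq2 left without an adjusted p, and 1.66 ± 0.22 in set B (adjusted p = 5.01e-12). Middle-aged against young was 0.91 ± 0.28 in set A (adjusted p = 0.0452) and -0.74 ± 0.22 in set B (adjusted p = 0.0239). The value near 0 in the whole series was thus an average of opposite differences of 2 livers against 2, and the difference between the sets was not tested.

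Ppp1r3b, the targeting subunit known as the liver form and often called GL, had aged livers that spread widely, with a coefficient of variation of 58.5% against 26.1% in young and 31.7% in middle-aged liver. Its normalised counts were 1213, 2512, 4106 and 5830 in aged livers 1 to 4. They were 1428, 1587, 2248 and 2469 in young livers and 1932, 2762, 1368 and 1612 in middle-aged livers. Aged 1 was the lowest of all 12 livers and aged 3 and 4 were the highest, so the aged livers enclosed both other groups. The log2 fold change was 0.82 ± 0.42 in aged against young (adjusted p = 0.317), 0.83 ± 0.42 in aged against middle-aged (adjusted p = 0.492) and -0.01 ± 0.42 in middle-aged against young liver (adjusted p = 0.994). The interval of the difference between aged and young liver, from -0.00309 to 1.65, includes a change as large as that of Ppp1r3c. Without aged 1, aged against young was 1.10 with an adjusted p of 0.0244, and the test across the 3 ages had an adjusted p of 0.0133.

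The values of Ppp1r3b differed widely between the sets, and that difference was not tested. Each set was fitted alone with 2 livers a group, so its adjusted p reflects the spread within that set. The share of all genes called within a set is not given here. Fitted to all livers, aged liver was not called against young (adjusted p = 0.317) or middle-aged liver (adjusted p = 0.492). In set B aged liver was 1.07 ± 0.16 above young (adjusted p = 3.29e-09) and 1.75 ± 0.16 above middle-aged liver (adjusted p = 3.33e-24). In set A the same differences were 0.31 ± 0.28 and -0.33 ± 0.28, with adjusted p of 1.0 and 0.917. Middle-aged against young was 0.64 ± 0.28 in set A (adjusted p = 0.383) and -0.67 ± 0.16 in set B (adjusted p = 0.00193). For middle-aged against young, then, Ppp1r3b and Ppp1r3c were both higher in set A and both lower in set B.

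**Figure D4:**
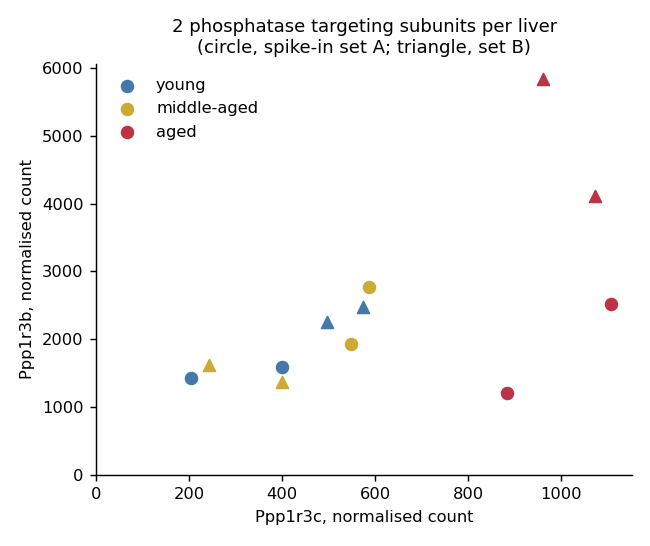
Normalised counts of Ppp1r3b against Ppp1r3c, 1 point a liver, coloured by age, with circles for spike-in set A and triangles for set B. The 8 younger livers lie at or below 586.3 for Ppp1r3c and between 1368 and 2762 for Ppp1r3b, and the 4 aged livers lie to their right over the whole height of the plot.

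Per length, the ratio of Ppp1r3b to Ppp1r3c was 0.602, 0.994, 1.68 and 2.66 in aged livers 1 to 4. It was 1.74 to 3.06 in young and 1.5 to 2.91 in middle-aged livers, with medians of 1.93 and 1.81 against 1.34 in aged liver. The ages overlapped, and aged 1 and 2 were the only livers in which Ppp1r3c was at or above the level of Ppp1r3b. No test was run on this ratio.

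Ppp1r3g, a targeting subunit linked to the early phase after feeding, was near the limit of detection. Raw counts were 1, 1, 10 and 8 in young, 5, 6, 5 and 12 in middle-aged and 3, 0, 4 and 4 in aged livers 1 to 4, where 3 counts is the limit that a count of 0 allows in a library. The log2 fold change in aged against young was -1.12 ± 0.91 (adjusted p = 0.613). Its young livers split by spike-in set. In aged against middle-aged liver the log2 fold change was -1.40 ± 0.89. These groups did not overlap, at 0.0 to 3.576 against 4.415 to 12.03 normalised counts, as held for 6.55% of all genes tested. DESeq2 gave Ppp1r3g no adjusted p in that pair, and limma gave 0.409. A difference between ages could not be settled at this depth.

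The rest of the pathway was followed through a list of 37 other glycogen genes. DESeq2 called 1 of 32 tested in aged against young (Gaa), 2 of 32 in middle-aged against young (Insr and Prkacb), 0 of 29 in aged against middle-aged and 2 of 32 across the 3 ages (Gaa and Insr). The shares of all genes called by these tests were 3.58%, 6.41%, 1.14% and 6.96%. Each call in a pair of ages was higher in the older group, as were 1.87% of all genes in aged against young and 3.51% in middle-aged against young liver. The median log2 fold changes over the list were 0.0301, 0.0308 and -0.028 in the 3 pairs. In aged against middle-aged liver, 2 had an unadjusted p under 0.05. Neither limma nor edgeR with its filter on low counts called any gene of this list in any of the 4 tests.

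Gaa, the lysosomal glucosidase that digests glycogen, had 647.5, 585.9, 668.3 and 641.4 normalised counts in young livers 1 to 4 and 751.7, 747.5, 844.2 and 791.1 in aged livers, which did not overlap. The log2 fold change was 0.30 ± 0.09 (adjusted p = 0.0252), and 5 of 12 fits without 1 liver kept this call. It was lost without young 1 (0.0632), 2 (0.146), 3 (0.0691) or 4 (0.067), aged 3 (0.166) or 4 (0.105), or middle-aged 3 (0.0516). Across the 3 ages (adjusted p = 0.0446) 2 of 12 such fits kept it, with adjusted p between 0.0234 and 0.202.

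Insr, the insulin receptor, was 0.49 ± 0.16 higher on the log2 scale in middle-aged than in young liver (adjusted p = 0.0314) and 0.45 ± 0.16 higher in aged than in young liver, which did not pass (adjusted p = 0.0848). Prkacb, a catalytic subunit of protein kinase A, was 0.33 ± 0.11 higher in middle-aged than in young liver (adjusted p = 0.038). Of the 12 fits without 1 liver, 6 kept this call for Insr and 4 that for Prkacb, with adjusted p of up to 0.143 and 0.18. Across the 3 ages 3 of 12 such fits kept the call for Insr, with adjusted p of up to 0.219. In aged against young liver Insr passed without aged 1 (0.000761) or young 1 (0.0157). Phkb, the kinase subunit that joins Phka2 and Phkg2, was at -0.23 ± 0.12 in aged against young (adjusted p = 0.322). Gys1 and Pygm were highest in young 3, at 29.62 and 36.73 normalised counts. They stood at 27.37 and 28.26 in middle-aged 3, the other library with skeletal muscle transcripts, and the part of these transcripts in their counts was not tested. Pygb, Gys1 and Pygm had no call.

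**Figure D5:**
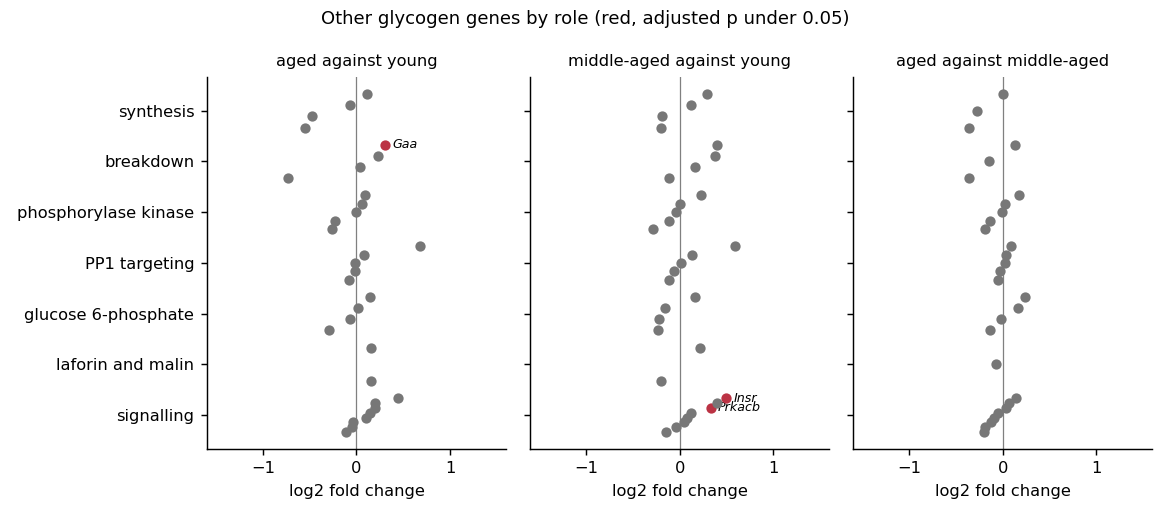
Log2 fold change of the other glycogen genes with an adjusted p, grouped by role, in the 3 pairs of ages. Red points passed the adjusted p of 0.05 and are named. Gaa is named in aged against young liver, Insr and Prkacb in middle-aged against young, and no gene passed between aged and middle-aged liver.

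Clock genes move with the hour of sampling in liver. Of 15 listed clock genes, DESeq2 called 1 of 15 tested in aged against young, 6 of 14 in middle-aged against young, 8 of 13 in aged against middle-aged and 10 of 15 across the ages. In the same order edgeR called 0, 4, 5 and 7 of 15, and limma 0, 3, 8 and 8. DESeq2 called 3.58%, 6.41%, 1.14% and 6.96% of all genes in these tests. The shares were 1.4%, 2.31%, 0.107% and 1.89% for edgeR and 0.798%, 0.921%, 0.32% and 1.29% for limma. Arntl, the activator also called Bmal1, had 106.4, 121.4, 249.1 and 227.9 normalised counts in aged livers 1 to 4 and 34.75, 70.93, 88.3 and 44.1 in middle-aged livers (log2 fold change 1.56 ± 0.39, DESeq2 adjusted p = 0.0117). This call was missed by edgeR (adjusted p = 0.165) and limma (adjusted p = 0.0668), and it was lost without aged 3 (0.123) or 4 (0.121) or middle-aged 1 (0.0789) or 4 (0.121). In young livers it had 64.75 and 58.59 in set A and 154.0 and 135.7 in set B. Dbp, an output gene of the clock, had 172.6, 157.0, 18.35 and 52.74 in aged livers and 908.5, 657.2, 503.3 and 686.5 in middle-aged livers (-2.78 ± 0.56, adjusted p = 0.000355). In aged and in young liver, Arntl and Ppp1r3b were higher in both livers of set B than in both of set A. In middle-aged liver Ppp1r3b was lower in both livers of set B, and Arntl overlapped between the sets. No clock gene was tested between the sets, and the part of sampling time in any glycogen gene was not tested.

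The other clock genes with the lowest adjusted p between aged and middle-aged liver were Nfil3 (1.53 ± 0.22, adjusted p = 1.65e-08), Per3 (-2.31 ± 0.36, adjusted p = 1.78e-07), Tef (-1.27 ± 0.21, adjusted p = 5.77e-06) and Nr1d2 (-1.05 ± 0.19, adjusted p = 3.6e-05). Cry1 was the clock gene called in aged against young liver (0.91 ± 0.26, DESeq2 adjusted p = 0.0188), and neither edgeR (adjusted p = 0.0628) nor limma (adjusted p = 0.0579) called it. The call was lost without aged 3 (0.157) or 4 (0.1) or young 1 (0.0769) or 2 (0.0901). Its 4 aged livers had 75.27, 86.69, 163.4 and 131.4 normalised counts, above the 52.01 to 74.65 of young liver.

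Of 10 listed genes that respond to fasting, 2 were called in aged against young liver, where DESeq2 called 3.58% of all genes. Igfbp1, a binding protein that insulin lowers, fell by 2.14 on the log2 scale (SE 0.59, adjusted p = 0.0147), from 260.1 to 569.3 in young to 16.09 to 181.6 normalised counts in aged livers. That call was lost without aged 2 (0.0727) or young 2 (0.102) or 3 (0.0658). Igfbp1 was lower still in middle-aged livers, at 24.72 to 66.44, which was called against young liver (-3.36 ± 0.60, adjusted p = 5.58e-06). Aged against middle-aged liver was 1.22 ± 0.60 (adjusted p = 0.464) and, of the 12 fits without 1 liver, passed in the one without aged 4 (1.58, adjusted p = 0.00553). Fgf21, a hormone of fasting and nutrient stress, had 1.061, 0.0, 1.185 and 0.0 in young and 9.032, 17.34, 33.21 and 15.2 in aged livers (adjusted p = 0.00213). In aged against young liver Igfbp1 and Fgf21 thus moved in opposite directions. In the same comparison edgeR called 1 of 9 fasting genes, Igfbp1, with Fgf21 below its filter, and limma called both. There edgeR called 1.4% and limma 0.798% of all genes.

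Genes of the fed state were called in middle-aged liver. Of 5 tested in middle-aged against young, DESeq2 called 2, both higher in middle-aged liver, beside 6.41% of all genes (3.51% as higher). Srebf1, a regulator of fat synthesis, had 1370 to 1910 normalised counts in young and 2536 to 3637 in middle-aged livers (0.81 ± 0.20, adjusted p = 0.00382). Pklr, the liver pyruvate kinase, had 1249 to 1865 and 2071 to 3747 (0.77 ± 0.25, adjusted p = 0.0401), and was named after its values were seen. In this comparison edgeR called 1 of 5 and limma 0 of 6, beside 2.31% and 0.921% of all genes. Srebf1 was also called across the 3 ages by DESeq2 (adjusted p = 0.0108), where edgeR and limma called 0. DESeq2 called 0 of 6 tested in aged against young and 0 of 5 tested in aged against middle-aged liver. In these pairs 3 and 1 of the listed genes had an unadjusted p under 0.05, and edgeR and limma called 0 as well. In aged against young all 6 had a positive log2 fold change, with a median of 0.495. In aged against middle-aged 1 of 5 was positive, with a median of -0.214. The part of feeding state in the glycogen genes was not tested.

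Markers of other liver cells were read beside the change of Ppp1r3c. None of the Kupffer cell, endothelial, stellate or leukocyte markers was called by DESeq2, edgeR or limma in any comparison, with at most 2 of a list at an unadjusted DESeq2 p under 0.05. Median log2 fold changes in aged against young and in aged against middle-aged liver were -0.0798 and 0.303 for the Kupffer cell markers. They were -0.0663 and 0.0306 for the endothelial, 0.0561 and -0.393 for the stellate, and -0.427 and -0.438 for the leukocyte markers, with 3 and 1 tested. Kupffer cell markers were positive for 1 and 5 of 5 in these pairs, and stellate markers for 3 and 0 of 5. Of 5 biliary markers, Sox9 alone was called, 0.86 ± 0.24 higher in aged than in young (adjusted p = 0.0169) and 0.95 ± 0.24 higher than in middle-aged liver (adjusted p = 0.0117). In both comparisons limma also called 1 biliary marker and edgeR 0. Sox9 was the only 1 of the 4 tested with a positive log2 fold change in either comparison. The medians of the 4 were -0.189 against young and -0.104 against middle-aged liver. DESeq2 called 3.58% and 1.14% of all genes in these comparisons. The 5 biliary markers summed to 28.2 to 35.9 CPM in young, 13.0 to 48.4 in middle-aged and 24.1 to 46.5 in aged livers, and those ranges overlapped. Of 5 red cell markers, Hbb-bs and Alas2 were called lower in aged than in young liver by DESeq2 (adjusted p = 0.0498 and 0.0255), where edgeR called 0 and limma 1. All 5 had an unadjusted DESeq2 p under 0.05 against young and against middle-aged liver, with median log2 fold changes of -1.83 and -1.3. For all 5, aged and young livers did not overlap, which held for 7.53% of all genes. The list summed to 2420 to 7880 CPM in young, 1390 to 5520 in middle-aged and 1030 to 2260 in aged livers. The part of these cells in the result was not tested.

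Over the 12 livers, the genes closest in pattern to Ppp1r3c among 8887 others that averaged 50 or more normalised counts were Sox9 and Stat5a (Pearson r = 0.9 each, log2 scale) and Larp1 (r = 0.893). Stat5a averaged 76.47 ± 13.38 in young, 85.16 ± 9.322 in middle-aged and 115.4 ± 11.14 normalised counts in aged liver. For Gys2 they were the amino acid transporter gene Slc38a4 (r = 0.926), Hbp1 (r = 0.925) and Klhl24 (r = 0.923), each with its highest mean in middle-aged liver. The correlation of Ppp1r3c was 0.768 with Cry1, 0.667 with Arntl and -0.556 with Dbp, and that of Gys2 was 0.835 with Nr1d2, 0.636 with Dbp and -0.597 with Arntl. Cry1 and Nr1d2 had the highest correlation among the clock genes compared. All of those were called between aged and middle-aged liver, as was Ppp1r3c, so these correlations are not independent of the calls. Nfil3 was at 0.754 for Ppp1r3c and -0.798 for Gys2. From the highest r down, Cry1 ranked 66 and Arntl 234 of the 8887 genes for Ppp1r3c. For Gys2, Nr1d2 ranked 73 and Dbp 767. These values describe likeness over livers that share ages, spike-in sets and libraries, and carry no test.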

How the data were processed

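Bulk RNA-seq counts of 12 livers, 4 at each of 3 ages (3, 12 and 18 months), were analysed. The authors deposited raw counts, whole numbers with no normalisation, in 1 table of 53465 genes with 92 further rows of spike-in RNA that were left out of library sizes and tests. The submitters' processing notes name STAR 2.5.2b, SAMtools 1.9, featureCounts and the builds mm10 and GRCm38, without a role or order, and the strand setting of the counting is not given in the sources used here. The sample labels give all 3 ages. The extraction note in them and the RNA-seq passage of the methods describe a strand-specific kit on young and old liver alone, and the study's text credits the RNA-seq of 3 ages to a public atlas, so how these 12 libraries were prepared is uncertain. The design text gives 3 replicates a group, while labels and table hold 4. Per the labels, every library comes from its own animal. Totals ran from 8124312 to 10527159 counts, and limits from a count of 0 cover counting error only. No pair of replicates agreed within counting noise (chi-square per gene 11.19 or more over 8888 genes).

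DESeq2 1.42.0 (R 4.3.3) was fitted to 28449 genes with at least 1 count in all 12 samples together, with age as the single term, Wald tests for the 3 pairs, a likelihood ratio test across the ages and independent filtering at its default. Genes without an adjusted p were not counted as tested, and calls were made at a Benjamini-Hochberg adjusted p under 0.05. Intervals of log2 fold changes are Wald intervals at 95%. edgeR 4.0.16 (quasi-likelihood) and limma 3.58.1 (voom with sample weights) were alternatives. The edgeR values in the text come from genes with at least 10 counts in 4 samples, a filter added after the data were seen because edgeR without it made far more false calls in simulated data. The fit without young 3 and middle-aged 3 was also added after the data were seen, on account of their muscle transcripts. Exon lengths and coordinates are from GENCODE M21, which held 53360 of the gene IDs. Genes that overlap the 9 held between 0 and 74 counts over all 12 libraries. Promoter sequence is from RefSeq (GRCm38.p6).

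The 9 genes, the gene lists and the tests were chosen with earlier results of these data known. All 9 genes were named, with the other glycogen genes that were called and Gys1, Pygb, Pygm and Phkb. 1 further gene of that list is not reported here and was left out of its counts. Arntl and Dbp were named in any case, and further clock, fed or fasting genes only where called beside a called member, up to 4 a comparison by lowest adjusted p. For each member called across the ages, the 3 genes with the highest correlation of log2 normalised counts plus 1 were named.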

Additional observations from a re-analysis of the deposited data

Results flagged for a closer look

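Of 27 groups of 4 livers, 1 for each of the 9 genes at each age, 2 held a liver that stood far from the other three by Dixon's criterion at the 95% level, where chance gives about 1 in 20. Both concerned Ppp1r3g at its few reads. Middle-aged 4 had 12.03 normalised counts against 4.415 to 5.387 in the other middle-aged livers (gap over range 0.872). Aged 2 had 0.0 against 3.011 to 3.576 in the other aged livers (0.842), which is a difference of 3 to 4 reads.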

How the results depend on the processing

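Each set of 4 counts below refers, in order, to the aged and young pair, the middle-aged and young pair, the aged and middle-aged pair and the test across the ages. Of the 9 genes, 1, 0, 1 and 2 were called as reported. They were 3, 1, 2 and 3 with edgeR without a filter, 1, 0, 0 and 1 with filtered edgeR, and 1, 0, 1 and 1 with limma. Within spike-in set A they were 1, 1, 0 and 1, and within set B 3, 2, 2 and 3. Among the alternatives, shares of all genes called are given in this report for filtered edgeR and limma alone. Counts from the other alternative fits, here and for the other glycogen genes below, are therefore not read as results about those genes. Unfiltered edgeR is also the fit that made far more false calls in simulated data. Fits of only the 2 ages compared called 2 between aged and middle-aged liver, and no independent filtering left 1 across the ages, as did leaving out young 3 with middle-aged 1. Without young 3 and middle-aged 3 the last 2 counts were 0 and 1. Replicate numbers did not pair the samples (correlations of deviations between -0.3025 and 0.1585). With a replicate block, 1, 0, 0 and 1 were called, with adjusted p for Ppp1r3c of 0.0416, 0.945, 0.162 and 0.0326. The fits without 1 liver called 1 to 3, 0 to 1, 0 to 2 and 1 to 4.

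Of the other glycogen genes, 1, 2, 0 and 2 were called as reported. Filtered edgeR, limma, the replicate block and no independent filtering gave 0 throughout. Filtering to 10 counts in 4 samples and the spike-in set as covariate each left 1 across the ages. Set A gave 0 in aged against young and 1 across the ages, and set B 1 in aged against middle-aged. Fits of only the 2 ages gave 0 and 4 against young liver. Leaving out young 3 with middle-aged 1 gave 1, 0, 0 and 0, and young 3 with middle-aged 3 gave 0 in all. The fits without 1 liver gave 0 to 2, 0 to 3, 0 and 0 to 3.

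Scaling by the spike-ins moved the median log2 ratio of genes with a mean of at least 50 by 1.204, 1.458 and -0.2575 in the 3 pairs. It then called 8, 9, 0 and 8 of the 9 genes and 27, 32, 0 and 28 of the others. Pygl was among those called in aged against young liver, at 1.22 (DESeq2 adjusted p = 0.0135). The share of all genes called under this scaling is not given here, so these counts are not read as a result about glycogen genes. Relative to the shift of the median, Ppp1r3c stood at 1.36, 0.24 and 1.12. The signs that turned under this scaling were those of Gys2 (1.12), Phkg2 (1.17) and Ppp1r3g (0.31) in aged against young, Ppp1r3b in middle-aged against young (1.57), and Gbe1 (-0.20), Ugp2 (-0.19), Pygl (-0.25) and Gaa (-0.12) in aged against middle-aged.

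The other turned signs were mostly of log2 differences near 0, and the cause was not tested. In aged against young they were Gys2 in set B (0.0351), Ugp2 (-0.0435), Pygl (-0.0455), Prkacb (-0.0349) and Ppp1r3g (0.36) in set A, and Phkg2 with limma (0.0363) and without young 3 and middle-aged 1 (0.00079). In middle-aged against young they were Pygl with limma (-0.00986), in set B (-0.0952) and without young 3 and middle-aged 1 (-0.00707), and Phkg2 (-0.0187), Ppp1r3c (-0.74) and Ppp1r3g (-0.27) in set B. Ppp1r3b there turned with unfiltered edgeR (0.00961), TMM factors (0.00984), limma (0.0333), the replicate block (0.0753), the set as covariate (0.0936), in set A (0.64), and without young 3 and either middle-aged 1 (0.0659) or middle-aged 3 (0.20). In aged against middle-aged they were Gbe1 (-0.27), Ugp2 (-0.15), Pygl (-0.16) and Ppp1r3b (-0.33) in set A, Insr (0.0950) in set B, and Gbe1 (-0.0370) and Pygl (-0.0208) without young 3 and middle-aged 3.

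Leaving out 1 liver turned 27 log2 differences, none of a gene called in that pair. Their ranges were -0.0733 to 0.0644 for Gys2, -0.0112 to 0.0673 for Pygl and -0.117 to 0.000576 for Phkg2 in aged against young. In middle-aged against young they were -0.0251 to 0.0729 for Pygl, -0.241 to 0.130 for Ppp1r3b, -0.142 to 0.288 for Ppp1r3c and -0.165 to 0.940 for Ppp1r3g. In aged against middle-aged they were -0.0530 to 0.152 for Gbe1, -0.0155 to 0.128 for Ugp2, -0.0416 to 0.0576 for Pygl and -0.119 to 0.0780 for Insr.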
